A study of Mus musculus with 16 samples.

Results

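The nuclear genes that encode the machinery of oxidative phosphorylation were followed across 16 mouse tumor libraries. Members were taken by symbol: Ndufa, Ndufb, Ndufc, Ndufs and Ndufv followed by a number, names that begin with Uqcr or Atp5, Cox4 to Cox8 followed by a letter, and Sdha to Sdhd. The rule found 81 of the 17426 genes shared by the subcutaneous and liver tables. Of these, 35 belong to complex I, 4 to complex II, 8 to complex III, 17 to complex IV and 17 to complex V. Ndufa4 was placed in complex IV, where its protein is now known to sit. The symbols also brought in Cox7a2l, which helps join complexes III and IV into supercomplexes, and Atp5s, coupling factor B, neither of which is counted as a subunit here. The rule missed some true components by spelling, among them Cyc1, Ndufab1 and Usmg5.

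Oxidative phosphorylation takes electrons from NADH at complex I and from succinate at complex II and passes them through complex III to complex IV, which reduces oxygen. Complexes I, III and IV pump protons across the inner mitochondrial membrane, and complex V, the ATP synthase, uses the gradient to make ATP. Hepatocytes and muscle fibers are rich in mitochondria, and several subunits of complex IV exist as a widely expressed form and a muscle or testis form. A few core subunits are encoded in mitochondrial DNA. Those genes were not analysed here, and all values are for nuclear transcripts.

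The tumors were seeded with 4T1, a carcinoma line of the BALB/c mammary gland, and grew in wild-type female BALB/c mice that were 6 weeks old. The post_Liver group (5 libraries) is tumor from the left liver lobe of mice given 10 mg/kg paclitaxel, a microtubule drug, into the peritoneum 5 times a week for 2 weeks, and the pre_Liver group (5 libraries) is liver tumor with no treatment label. The post_SC group (3 libraries) is mammary fat pad tumor, which the labels call subcutaneous, after the same paclitaxel course, and the pre_SC group (3 libraries) is fat pad tumor with no treatment label. Liver sites received 200000 cells and fat pad sites 400000, so the site and the number of cells implanted cannot be told apart. Tumors were grown for 15 days, digested and frozen as cells, with no sort named, before poly(A) RNA was prepared, so host cells remain. The labels do not say whether the pre mice received the PBS given to control animals, nor whether each library is a separate mouse, so p-values rest on a spread among libraries that may be technical.

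Depth is unknown because the files hold TPM and FPKM values and no counts. The 81 members together took 1.68% to 2.19% of each library's TPM. The label of tumor tissue was checked with markers: Epcam, an epithelial gene, stood at 22.3 to 693 TPM in liver libraries and at 752 to 1093 TPM in fat pad libraries. Alb, the hepatocyte gene for albumin, stood at 734 to 61260 TPM in liver libraries and at no more than 4.22 TPM in fat pad libraries. Replicates 2 and 3 of post_Liver had the least Alb, 873 and 734 TPM, and resembled each other more than any other pair within a group (SD of their log2 differences over genes 0.251, against 0.346 to 1.33 for the other pairs). Replicate 2 of post_SC had high skeletal muscle markers, described below. In these bulk samples, fewer cells of a type and less RNA per cell cannot be told apart.

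Levels differed widely between members of the same complex. In complex V, Atp5b, the catalytic beta subunit, averaged 887 TPM over the 16 libraries, and Atp5k, a small membrane subunit, averaged 170 TPM. In complex I the range was wider, 463 TPM for Ndufb9 and 27.4 TPM for Ndufa11, both accessory subunits of the membrane arm. Complex II was the most even: Sdhc, a membrane anchor, averaged 224 TPM and Sdhd, its partner, 127 TPM. In complex III, Uqcrb averaged 329 TPM and Uqcrq 123 TPM. In complex IV, leaving out tissue isoforms, Cox8a averaged 863 TPM and Cox7b 150 TPM. TPM is scaled by transcript length, so these levels can be set side by side within a library, up to errors in the gene models.

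Promoters are shown because the members share letters there that the rule did not use. RefSeq gave 72 promoters for 67 members (GRCm38.p6, 250 bases before to 50 after the start). The motif of NRF1, a regulator of respiratory chain genes, was searched as GCGCANGCG on both strands and was in 29.2% of them, against 8.58% of 21263 promoters of coding genes. The ETS motif bound by GABP, CCGGAAG, was in 22.2% against 11.6%, and the YY1 motif, AANATGGCG, in 13.9% against 3.12%. The SP1 motif, GGGCGGG, was in 33.3% against 33.9%. Searched this way, no motif overlapped another in the promoters printed here. CpG steps numbered 6.33 per 100 bases in the median member promoter, against 4.33. Of 3 promoters of tissue isoforms, none held the NRF1, ETS or YY1 letters, and their median CpG was 2.33 per 100 bases.

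Printed here 5′ to 3′ on the gene's strand, with matches in capitals, are Atp5l and Atp5b of complex V, which moved in opposite directions in fat pad tumors, Sdha and Ndufb10, which were higher in liver tumors, and the paired isoforms Cox8a and Cox8b. In positions where 1 is the start site, Sdha held 3 NRF1 matches beginning at -98, -55 and -10, and Ndufb10 held 1 at -2. Atp5l held an NRF1 match at -241 and ETS matches at -212 and 25, Atp5b an SP1 match at -46 and a YY1 match at 17, and Cox8a ETS matches at -5 and 33. Cox8b, the muscle form, held none of the 4 in this window.
Atp5l (chr9:44920693-44920992, minus strand): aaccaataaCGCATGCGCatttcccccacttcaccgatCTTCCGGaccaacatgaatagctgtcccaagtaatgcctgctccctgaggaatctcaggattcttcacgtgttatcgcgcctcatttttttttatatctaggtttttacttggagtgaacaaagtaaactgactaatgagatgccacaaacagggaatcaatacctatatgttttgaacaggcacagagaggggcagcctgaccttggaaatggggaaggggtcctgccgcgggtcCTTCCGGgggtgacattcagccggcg
Atp5b (chr10:128083057-128083356, plus strand): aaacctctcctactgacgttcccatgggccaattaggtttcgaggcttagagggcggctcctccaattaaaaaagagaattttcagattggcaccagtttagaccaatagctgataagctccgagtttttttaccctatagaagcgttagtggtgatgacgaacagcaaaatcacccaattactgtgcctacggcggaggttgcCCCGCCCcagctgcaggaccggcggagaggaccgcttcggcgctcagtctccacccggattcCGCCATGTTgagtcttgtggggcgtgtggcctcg
Sdha (chr13:74350191-74350490, minus strand): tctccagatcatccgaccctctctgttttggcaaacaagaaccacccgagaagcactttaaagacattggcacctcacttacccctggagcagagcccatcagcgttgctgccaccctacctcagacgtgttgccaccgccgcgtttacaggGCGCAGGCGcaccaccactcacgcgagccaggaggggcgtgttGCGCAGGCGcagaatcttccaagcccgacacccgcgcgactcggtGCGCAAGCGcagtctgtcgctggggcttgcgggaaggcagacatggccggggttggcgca
Ndufb10 (chr17:24724374-24724673, minus strand): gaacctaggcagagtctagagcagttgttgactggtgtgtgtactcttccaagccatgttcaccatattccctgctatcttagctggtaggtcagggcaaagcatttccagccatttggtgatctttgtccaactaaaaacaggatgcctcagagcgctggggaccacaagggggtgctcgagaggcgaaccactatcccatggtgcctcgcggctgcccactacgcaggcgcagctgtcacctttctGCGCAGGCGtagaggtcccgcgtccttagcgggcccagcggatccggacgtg
Cox8a (chr19:7217567-7217866, minus strand): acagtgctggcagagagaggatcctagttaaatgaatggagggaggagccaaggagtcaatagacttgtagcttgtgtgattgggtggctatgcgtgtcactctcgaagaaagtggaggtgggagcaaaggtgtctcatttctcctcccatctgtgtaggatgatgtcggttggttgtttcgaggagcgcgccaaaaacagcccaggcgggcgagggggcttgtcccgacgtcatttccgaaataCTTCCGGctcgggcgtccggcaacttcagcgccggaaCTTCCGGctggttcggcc
Cox8b (chr7:140900397-140900696, minus strand): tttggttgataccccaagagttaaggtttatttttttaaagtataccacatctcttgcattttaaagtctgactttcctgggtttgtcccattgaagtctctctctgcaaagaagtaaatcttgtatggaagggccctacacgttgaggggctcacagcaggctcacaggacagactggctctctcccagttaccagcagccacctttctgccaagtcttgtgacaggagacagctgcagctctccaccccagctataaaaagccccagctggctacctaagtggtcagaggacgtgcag

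The first comparison asked what paclitaxel did to these genes in fat pad tumors. Of 81 members tested, 5 rose in post_SC tumors (6.17%, where 2.71% of all 13339 genes tested were called higher) and 1 fell (1.23%, where 4.34% of all genes were called lower). The 5 were Atp5l, Uqcrb, Ndufv2, Ndufa5 and Cox7c, from complexes V, III, I, I and IV, and the member that fell was Atp5b. Called means a limma adjusted p under 0.05 over all genes tested, on log2(TPM + 1). The median member differed by 0.20 on the log2 scale and the median of all genes by -0.03.

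Atp5l (chr9:44912557-44920742), subunit g of the membrane part of ATP synthase, had 737, 736 and 688 TPM in post_SC tumors, against 424, 496 and 487 TPM in pre_SC tumors. The groups were far apart, and the log2 change was 0.62 ± 0.10 (SE; adjusted p = 0.0188). Atp5b (chr10:128083273-128090391) had 677, 713 and 710 TPM in post_SC tumors, against 906, 977 and 912 TPM in pre_SC tumors, with no overlap and a log2 change of -0.41 ± 0.09 (SE; adjusted p = 0.0362). So within complex V a membrane subunit was higher and the catalytic subunit lower in the same libraries.

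Uqcrb (chr13:66900617-66905378), a small accessory subunit of complex III, had 394, 409 and 318 TPM in post_SC tumors, against 264, 242 and 240 TPM in pre_SC tumors (log2 change 0.58 ± 0.12, adjusted p = 0.0362). Ndufv2 (chr17:66078638-66101559), a core iron-sulfur subunit of the NADH module of complex I, had 136, 146 and 122 TPM in post_SC tumors and 92.7, 96.1 and 95.2 TPM in pre_SC tumors (0.50 ± 0.11, adjusted p = 0.0370). The pre_SC libraries were close to each other for both genes, and no library of one group reached the other.
Ndufa5 (chr6:24518666-24528013), an accessory subunit of the peripheral arm of complex I, had 124, 147 and 87.4 TPM in post_SC tumors, against 56.9, 62.4 and 69.4 TPM in pre_SC tumors (0.89 ± 0.20, adjusted p = 0.0396). Cox7c (chr13:86044816-86046904), a small subunit of complex IV, had 804, 849 and 673 TPM in post_SC tumors and 499, 532 and 586 TPM in pre_SC tumors (0.52 ± 0.12, adjusted p = 0.0456). In Uqcrb, Ndufv2, Ndufa5 and Cox7c alike, replicate 2 was the highest and replicate 3 the lowest of the post_SC libraries.

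**Figure D1:**
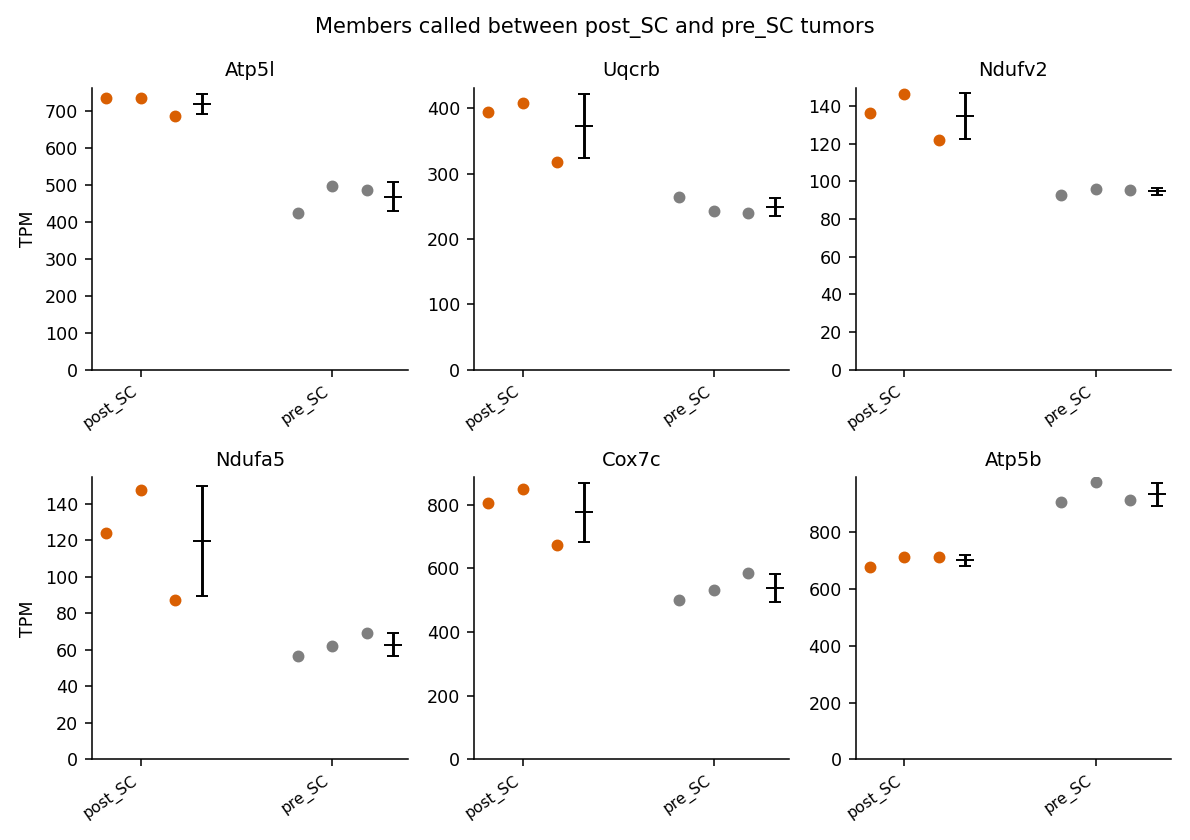
TPM of the 6 members called between post_SC (left, 3 libraries) and pre_SC (right, 3 libraries) tumors; points are libraries, and the bar beside them is the mean ± SD. The groups do not overlap in any panel: Atp5l is at 688 to 737 TPM in post_SC tumors and at 424 to 496 TPM in pre_SC tumors, while Atp5b is lower in post_SC tumors.

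Without overlap between the groups, 26 members stood higher in post_SC tumors (32.1%, against 16% of all genes) and 6 lower (7.41%, against 18.7%). By complex, the median log2 difference was 0.23 for complex I, 0.02 for II, 0.19 for III, 0.22 for IV and 0.13 for V. Complex I held 15 of the 26 and none of the 6. The 6 lower were Sdhb, the iron-sulfur subunit of complex II, Uqcrc1, a core protein of complex III, and 4 of the 5 subunits of the F1 head of ATP synthase, Atp5a1, Atp5b, Atp5c1 and Atp5d (these were named after their values were seen). Atp5a1, the alpha subunit, had 341, 381 and 383 TPM in post_SC tumors, against 416, 418 and 388 TPM in pre_SC tumors, with a log2 difference of -0.15 and an adjusted p of 0.355. The difference in Atp5d, the delta subunit, was -0.27 (adjusted p = 0.193). The fifth, Atp5e, the epsilon subunit, differed by 0.36 (adjusted p = 0.184). The median was -0.15 over the F1 subunits and 0.13 over the 11 membrane and stalk subunits.

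Transcript length moved with these values. Members are short (median 861 bases for the longest coding transcript, against 2984 bases over all genes). Over all genes, the median log2 difference between post_SC and pre_SC tumors was 0.17 for transcripts under 800 bases, 0.04 for 800 to 1499 bases and -0.04 for 1500 bases and over. Members in the same classes had medians of 0.23 (38 members), 0.12 (23 members) and 0.03 (20 members). The part of length in the result was not tested.

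Most calls ended when a single library was left out. Calls over all genes also fell each time, from 7.05% with all 6 libraries, so the loss was not particular to the members. Only Atp5l stayed called without replicate 1 or without replicate 2 of post_SC, where 0.882% and 1.83% of all genes were called higher. No member was called without any 1 of the pre_SC libraries, where 0.577% to 1.41% of all genes were. Without replicate 3 of post_SC, all 5 rises stayed called and Ndufb3 joined them (2.07% of all genes were called higher there), and Atp5b was not called. The call of Atp5b ended without any 1 of the 6 libraries. Atp5b also missed the threshold under median-of-ratios scaling (-0.37, adjusted p = 0.0907) and quantile normalization (-0.29, adjusted p = 0.0854).

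Other genes of energy metabolism were described from lists. Over all genes, 2.71% were called higher and 4.34% lower, with a median of -0.03. Of 18 glycolysis genes, 13 fell in post_SC tumors and none rose, with a median log2 difference of -1.05. Of 48 assembly factors tested, 2 rose and 1 fell: Sdhaf1, which helps insert iron-sulfur clusters into complex II, by 1.37 ± 0.21 (adjusted p = 0.0170), Cox20, a complex IV chaperone, by 1.28 ± 0.17 (adjusted p = 0.0133), and Higd1a, a hypoxia-induced factor, by -1.19 ± 0.24 (adjusted p = 0.0340). These 3 were named after their values were seen. Of 75 mitochondrial ribosome genes 1 rose, with a median of 0.05, and 20 citric acid cycle genes had a median of -0.09. Of 83 cytosolic ribosomal protein genes, which also have short transcripts, 12 rose and none fell, with a median of 0.16.

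Endothelial RNA and proliferation genes differed in the same libraries. Of 8 endothelial markers, 4 rose and 7 stood higher without overlap, with sums of 213 to 256 TPM in post_SC tumors and 83.8 to 128 TPM in pre_SC tumors. Of 10 proliferation genes 7 fell and none rose, with a median of -0.86. Their part in the members' values was not tested.

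Tissue isoforms of complex IV set replicate 2 of post_SC apart. Cox6a2, the heart and skeletal muscle form of subunit 6a, had 9.75, 184 and 3.53 TPM in post_SC tumors, against 4.06, 1.59 and 4.99 TPM in pre_SC tumors. Cox8b, the muscle and brown fat form of subunit 8, had 5.00, 97.9 and 1.13 TPM in post_SC tumors, against 1.78, 2.47 and 3.46 TPM in pre_SC tumors. Cox7a1, the muscle form of subunit 7a, had 1.92, 17.8 and 0.288 TPM in post_SC tumors, against 0.595, 3.83 and 3.44 TPM in pre_SC tumors.
In all 3, a single library was far above the other 5, and the limma adjusted p was 0.263, 0.416 and 0.836. The matching widely expressed forms did not stand out there: in post_SC tumors Cox6a1 had 606, 580 and 574 TPM and Cox8a 866, 788 and 823 TPM, against 565, 639 and 598 TPM for Cox6a1 and 725, 828 and 868 TPM for Cox8a in pre_SC tumors.

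The muscle gene Ckm, muscle creatine kinase, had 31.9, 1137 and 10.8 TPM in post_SC tumors, against 7.28, 0.136 and 25.5 TPM in pre_SC tumors. The summed TPM of 18 skeletal muscle markers was 612, 11520 and 352 in post_SC tumors, against 468, 262 and 496 in pre_SC tumors. Of the 18, 17 had a positive difference. Brown fat was checked because Cox8b and Cox7a1 are also on its marker list: the summed TPM of its 8 markers was 33.0 to 168 in post_SC tumors and 8.14 to 16.5 in pre_SC tumors, and all 4 tested were above 0 and 1 rose. The sum and the 4 include Cox8b and Cox7a1 themselves, at 97.9 and 17.8 TPM in replicate 2 of post_SC. Neither was recomputed without them, so they are no separate evidence of brown fat. Ucp1, its defining gene, was at 0.117 TPM or less in every fat pad library. The 7 heart markers summed to 503 to 596 TPM in post_SC tumors and 537 to 615 TPM in pre_SC tumors, with Myh6 of heart muscle at 2.77 TPM or less. The part of these cell types in the isoforms' values was not tested. The 6 called members kept their direction without replicate 2 of post_SC, with log2 differences of 0.44 for Ndufv2 to 0.72 for Ndufa5 and of -0.42 for Atp5b.

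**Figure D2:**
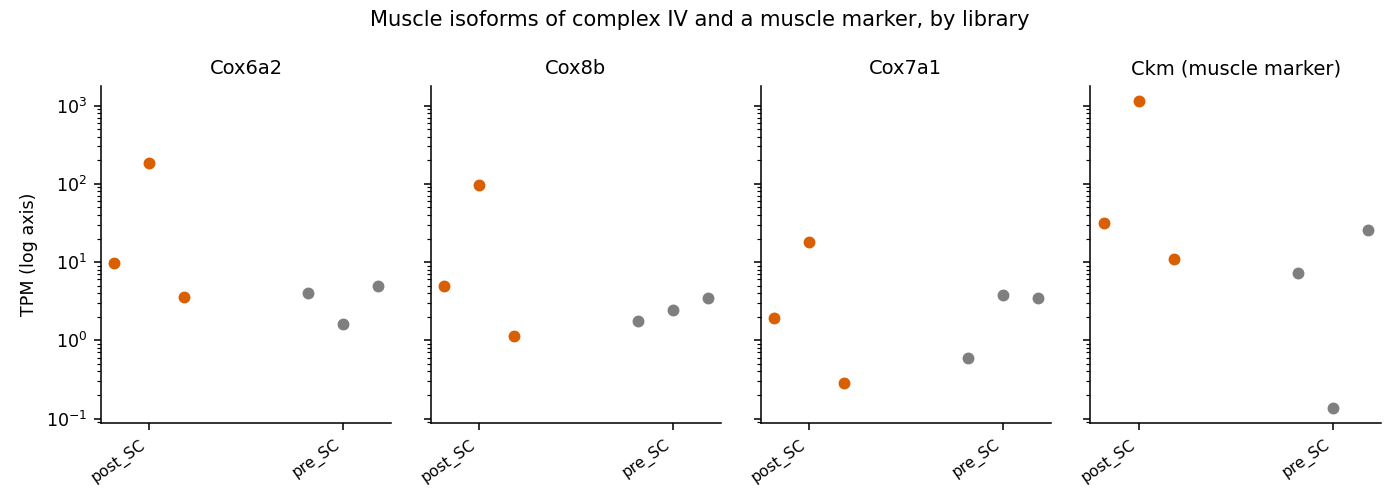
TPM on a log axis of the muscle isoforms Cox6a2, Cox8b and Cox7a1 and of the muscle marker Ckm in post_SC (left) and pre_SC (right) tumors; each point is a library. The second post_SC library stands at 184, 97.9, 17.8 and 1137 TPM, above the other 5 libraries in every panel.

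The second comparison asked the same of liver tumors. Of 80 members tested, 1 rose in post_Liver tumors (1.25%, against 2.20% of all 13727 genes) and none fell (against 0.976% of all genes), so the share called was no larger than the background. Cox8b was too low to test. At an unadjusted p under 0.05 there were 2 members higher, where 23.2% of all genes were, and 15 lower, where 8.63% of all genes were. The median member differed by -0.18 while the median of all genes differed by 0.39, and 67 of 80 members were below 0.

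Cox6b2 (chr7:4751792-4753094), a form of subunit 6b known mainly from testis, was the member that rose. It had 8.35, 8.69, 7.89, 5.97 and 4.76 TPM in post_Liver tumors, against 0.902, 4.12, 2.18, 1.94 and 3.41 TPM in pre_Liver tumors. The groups did not overlap, and the log2 change was 1.27 ± 0.28 (SE; adjusted p = 0.0420). The level was low throughout: Cox6b1, the widely expressed form, had 321 to 545 TPM in post_Liver tumors and 399 to 578 TPM in pre_Liver tumors. The call ended without any 1 of 8 of the 10 libraries (all except replicate 4 of post_Liver and replicate 2 of pre_Liver), and over all alternatives its adjusted p ran between 0.0155 and 0.145.

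Without overlap, 9 members stood lower in post_Liver tumors (11.2%, against 1.38% of all genes) and 1 higher (1.25%, against 5.14%). The 9 were Ndufa6, Ndufa9, Ndufs3, Sdha, Uqcr10, Uqcrfs1, Atp5g1, Atp5j and Atp5o, named after their values were seen. Ndufa9, a complex I subunit near the quinone site, had 84.0, 82.1, 73.5, 74.1 and 70.4 TPM in post_Liver tumors, against 104, 96.1, 113, 111 and 117 TPM in pre_Liver tumors (-0.49 ± 0.13, adjusted p = 0.0617). Uqcrfs1, the Rieske iron-sulfur protein of complex III, had 134, 112, 103, 129 and 106 TPM in post_Liver tumors, against 156, 138, 166, 167 and 199 TPM in pre_Liver tumors (-0.50 ± 0.15, adjusted p = 0.0842). For each, every post_Liver library lay below every pre_Liver library, and neither passed the test.

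Complex II had the lowest median difference between post_Liver and pre_Liver tumors, -0.55, followed by complex III at -0.34, V at -0.16, I at -0.15 and IV at -0.08. Sdha, the flavoprotein that oxidizes succinate, had 125, 96.4, 90.7, 124 and 108 TPM in post_Liver tumors, against 149, 126, 169, 212 and 210 TPM in pre_Liver tumors (-0.65 ± 0.19, adjusted p = 0.0777). Sdhb (chr4:140961203-140979193) had 175, 105, 112, 196 and 158 TPM in post_Liver tumors, against 216, 174, 241, 262 and 304 TPM in pre_Liver tumors (-0.70 ± 0.23, adjusted p = 0.0943). For both, replicates 2 and 3 of post_Liver were the lowest of 10 libraries and replicates 4 and 5 of pre_Liver the highest. In the untreated table, described below, replicates 4 and 5 of pre_Liver form a batch of their own. The post_Liver libraries are not in that table and their batch is unknown. Batch therefore cannot be told apart from treatment or Alb in these orders.

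Albumin RNA was lowest and highest in the same libraries as Sdha and Sdhb, but the full order was not the same. Alb was at 10790, 873, 734, 21910 and 11070 TPM in post_Liver tumors, against 23250, 8231, 27940, 56770 and 61260 TPM in pre_Liver tumors. All 20 hepatocyte markers had a negative difference, with a median of -2.37, and their summed TPM was 4330 to 115800 in post_Liver tumors and 42450 to 181400 in pre_Liver tumors. Uqcrq, a complex III subunit, ran from 73.4 TPM in the post_Liver library with the least Alb to 281 TPM in the pre_Liver library with the most. With the hepatocyte score as a covariate, the differences were -0.36 for Sdha, -0.26 for Sdhb and -0.18 for Uqcrq (adjusted p 0.228, 0.300 and 0.620), and -0.47 for Ndufa9 (adjusted p = 0.0862). The same covariate gave Cox7b of complex IV a difference of -0.69, and it was the 1 member called there (adjusted p = 0.0289, against a difference of -0.37 and an adjusted p of 0.181 without the covariate; 0.670% of all genes were called lower). The members' median with the covariate was -0.30 and that of all genes 0.09.
Ndufa9 in post_Liver tumors was 82.1 and 73.5 TPM in the 2 libraries with little Alb and 74.1 TPM in the one with the most. In pre_Liver tumors it was lowest, 96.1 TPM, in the library with the least Alb and highest, 117 TPM, in the one with the most. Replicates 1 and 5 of post_Liver, with 10790 and 11070 TPM of Alb, had 84.0 and 70.4 TPM of Ndufa9, against 96.1 TPM in replicate 2 of pre_Liver, which had 8231 TPM of Alb. In the same libraries Sdha had 125 and 108 TPM, against 126 TPM, and Sdhb 175 and 158 TPM, against 174 TPM. Uqcrq had 108 and 136 TPM there, against 129 TPM. These values rest on 1 untreated library, and Ndufa9 was named after its values were seen. Cox7a2l ran the other way, at 270, 339, 342, 237 and 267 TPM in post_Liver tumors, against 246, 272, 206, 171 and 171 TPM in pre_Liver tumors (0.46 ± 0.19, adjusted p = 0.142). The part of hepatocyte RNA in the remaining differences was not tested.

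**Figure D3:**
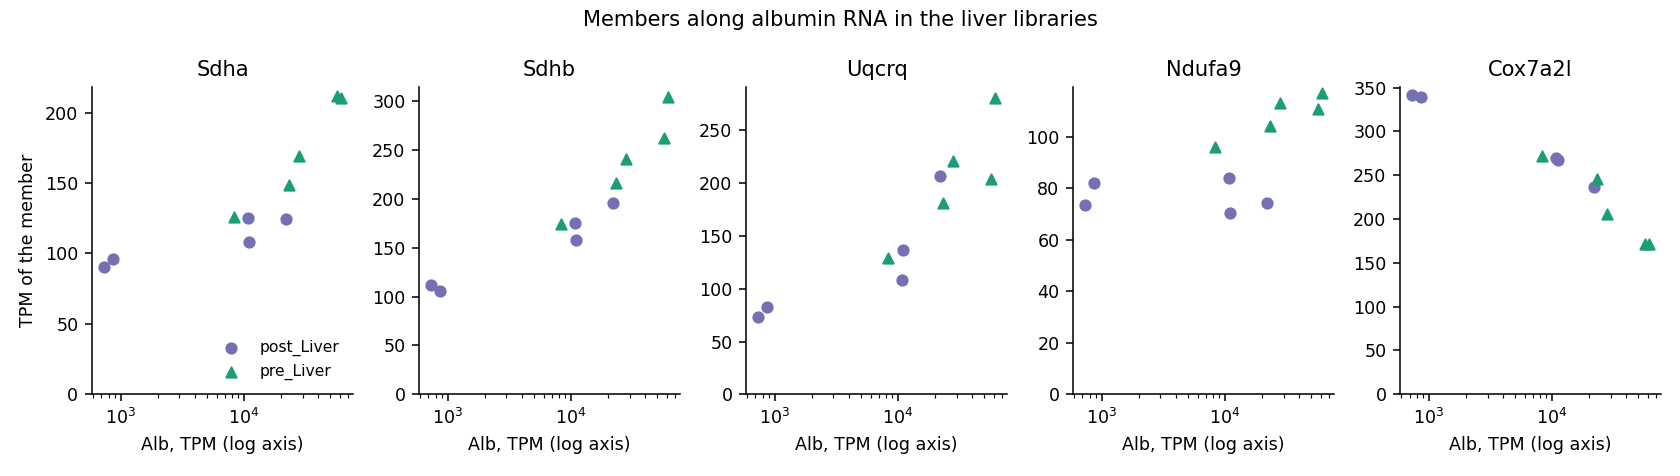
TPM of Sdha, Sdhb, Uqcrq, Ndufa9 and Cox7a2l against TPM of Alb (log axis) in the 5 post_Liver (circles) and 5 pre_Liver (triangles) libraries. Sdhb lies between 105 and 304 TPM and is higher where Alb is higher, Cox7a2l is lower where Alb is higher, and Ndufa9 splits by group at 84.0 TPM and 96.1 TPM.

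Neutrophil RNA also differed. Of 12 neutrophil markers, 11 rose in post_Liver tumors, and their summed TPM was 3858 to 22650 in post_Liver tumors and 213 to 1617 in pre_Liver tumors. All 16 carcinoma epithelium markers had a positive difference and 1 was called, with sums of 4921 to 8055 TPM in post_Liver tumors and 1020 to 5121 TPM in pre_Liver tumors. The part of these cells in the members' values was not tested. Without replicate 2 of pre_Liver, the untreated library with the least Alb, 10 members were called lower (Ndufa6, Ndufa9, Ndufb10, Ndufs3, Sdha, Sdhb, Sdhd, Uqcrc2, Uqcrfs1 and Uqcrq) and Cox6b2 higher. Over all genes, 7.00% were called lower and 22.2% higher there. Without replicate 4 of post_Liver, Sdhb and Uqcrq were called lower and Cox6b2 higher, where 5.44% of all genes were lower and 7.40% higher.

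Other lists of the pathway had their own medians between post_Liver and pre_Liver tumors, -0.01 for 48 assembly factors, 0.38 for 18 glycolysis genes and 0.07 for 75 mitochondrial ribosome genes. The median of all genes was 0.39, and 0.976% of them were called lower. Of 20 citric acid cycle genes 1 fell, Suclg2, a subunit of the GTP-forming succinyl-CoA ligase, by -0.94 ± 0.20 (adjusted p = 0.0373).

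**Figure D4:**
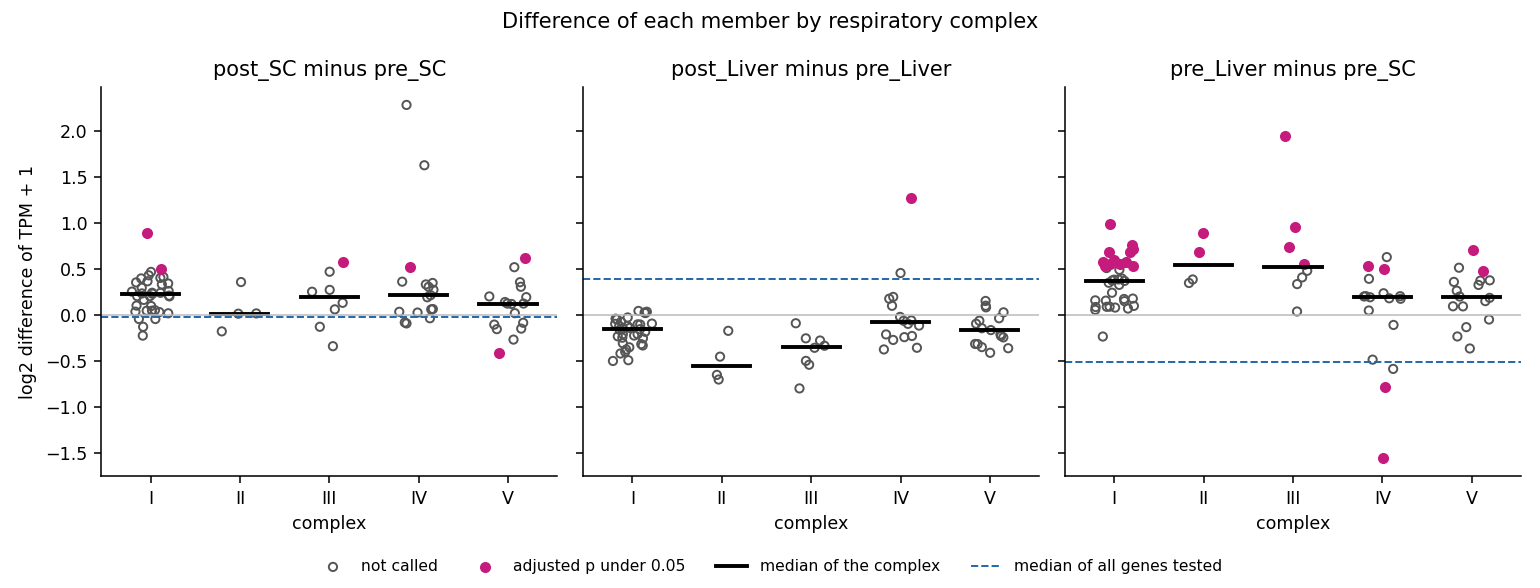
Log2 difference of TPM + 1 for each member by complex in post_SC minus pre_SC, post_Liver minus pre_Liver and pre_Liver minus pre_SC tumors; magenta points have an adjusted p under 0.05, black bars are medians and the blue dashed line is the median of all genes tested. Complexes II and III have medians of -0.55 and -0.34 between post_Liver and pre_Liver tumors and of 0.54 and 0.52 between pre_Liver and pre_SC tumors.

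The third comparison set the sites against each other with no treatment. Of 81 members, 22 were higher in pre_Liver than in pre_SC tumors (27.2%, against 14.9% of all 13648 genes) and 2 were lower (2.47%, against 32.6%). Without overlap, 42 stood higher (51.9%, against 16.6%) and 3 lower (3.70%, against 34.8%). The 22 comprised 12 members of complex I, 2 of II, 4 of III, 2 of IV and 2 of V, and the 2 lower were Cox8b and Cox7a2l. The median member differed by 0.34 while the median of all genes differed by -0.51.

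Uqcrq (chr11:53427922-53430831) showed the largest difference of any member called. It had 181, 129, 221, 204 and 281 TPM in pre_Liver tumors, against 40.8, 56.6 and 55.4 TPM in pre_SC tumors (1.94 ± 0.26, SE; adjusted p = 0.000912). Its neighbor in complex III, Uqcr10 (chr11:4701973-4704342), a small membrane subunit, had 379, 350, 389, 386 and 461 TPM in pre_Liver tumors, against 185, 207 and 212 TPM in pre_SC tumors (0.96 ± 0.16, adjusted p = 0.00316). Uqcrq and Uqcr10 stayed called in every alternative run, those without 1 library included.
Not all of complex III was called: Uqcrh, the hinge protein, had 343, 316, 352, 249 and 236 TPM in pre_Liver tumors, against 265, 293 and 306 TPM in pre_SC tumors (0.04 ± 0.19, adjusted p = 0.865). Its replicates 1 to 3 of pre_Liver, which share a batch with pre_SC as described below, were above every pre_SC value. Replicates 4 and 5, of another batch, were below every pre_SC value.

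Ndufb10 (chr17:24722060-24724478), a membrane arm subunit of complex I whose promoter is printed above, had 182, 124, 188, 207 and 207 TPM in pre_Liver tumors, against 78.4, 99.0 and 93.0 TPM in pre_SC tumors (0.99 ± 0.21, adjusted p = 0.00883). Sdhb had 216, 174, 241, 262 and 304 TPM in pre_Liver tumors, against 123, 134 and 123 TPM in pre_SC tumors (0.89 ± 0.20, adjusted p = 0.0115). Ndufa3 (chr7:3617373-3620327), another accessory subunit of complex I, had 299, 246, 302, 218 and 235 TPM in pre_Liver tumors, against 134, 176 and 149 TPM in pre_SC tumors (0.76 ± 0.18, adjusted p = 0.0145). In each of these the lowest pre_Liver library lay above the highest pre_SC library, and for Ndufb10 and Sdhb it was replicate 2, which had the least Alb of the group.

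The 2 members lower in liver were of other kinds. Cox7a2l (chr17:83501918-83517330) had 246, 272, 206, 171 and 171 TPM in pre_Liver tumors, against 353, 374 and 357 TPM in pre_SC tumors (-0.78 ± 0.20, adjusted p = 0.0183), but under median-of-ratios scaling the difference was -0.23 (adjusted p = 0.157). Cox8b (chr7:140898945-140900446) was listed at 0 in replicates 1, 2 and 3 and at 0.891 and 0.284 TPM in replicates 4 and 5 of pre_Liver, against 1.78, 2.47 and 3.46 TPM in pre_SC tumors (-1.55 ± 0.28, adjusted p = 0.00428). Beside it, the summed skeletal muscle markers were at 8.67 to 84.3 TPM in pre_Liver tumors and at 262 to 496 TPM in pre_SC tumors, and 9 of 12 tested were called lower; the part of muscle in this result was not tested.

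**Figure D5:**
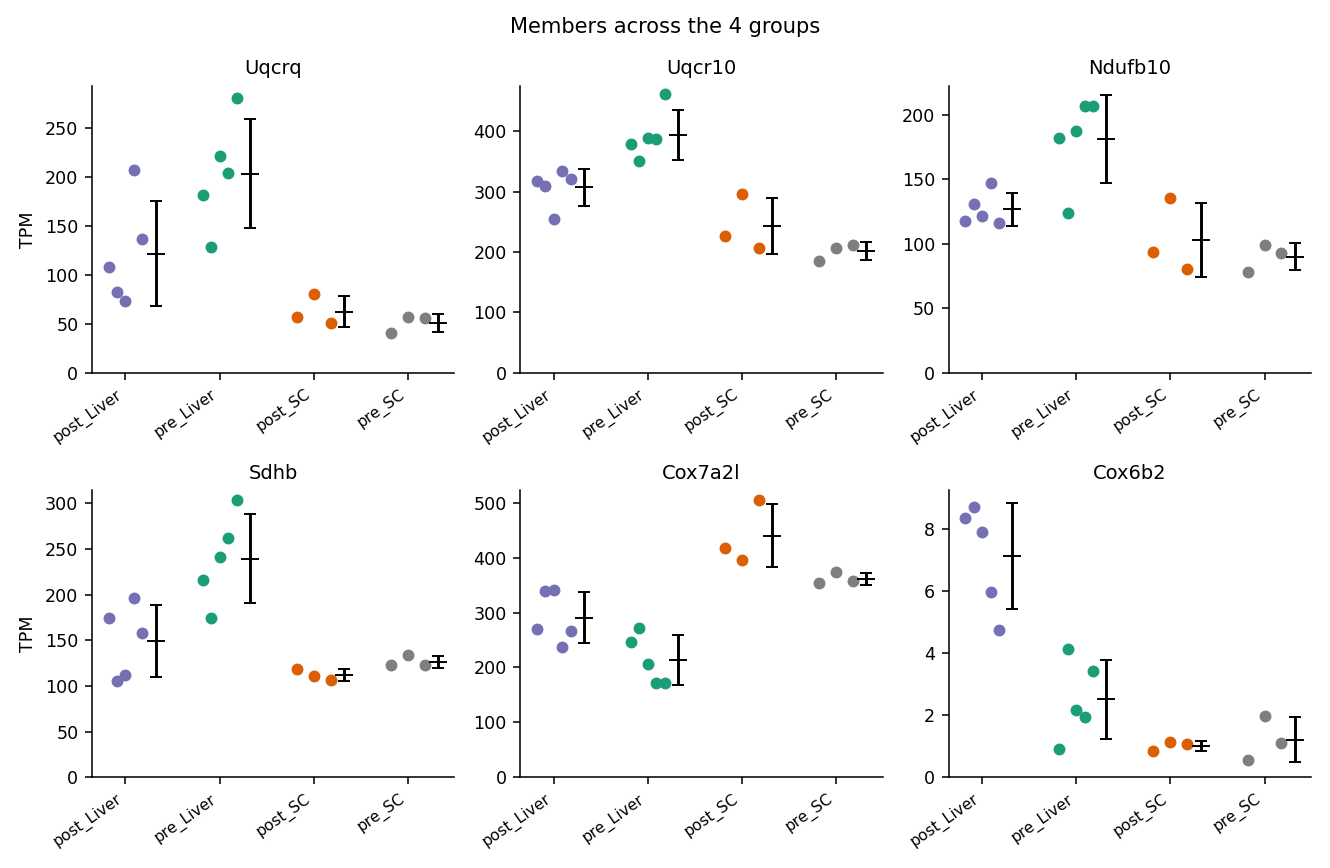
TPM of Uqcrq, Uqcr10, Ndufb10, Sdhb, Cox7a2l and Cox6b2 in post_Liver, pre_Liver, post_SC and pre_SC tumors; points are libraries and the bar beside them is the mean ± SD. Uqcrq is at 129 to 281 TPM in pre_Liver tumors and at 40.8 to 56.6 TPM in pre_SC tumors, and Cox6b2 is highest in post_Liver tumors, at 4.76 to 8.69 TPM.

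Isoform pairs gave no single direction between the sites. In complex IV, Cox6a1 had 843, 817, 862, 798 and 952 TPM in pre_Liver tumors, against 565, 639 and 598 TPM in pre_SC tumors, and was called (0.51 ± 0.17, adjusted p = 0.0376). That call ended in 10 of 18 alternatives, among them 7 of 8 that left out 1 library, and quantile normalization gave 0.28 (adjusted p = 0.189). Cox4i1, Cox6b1, Cox7a2, Cox7b and Cox8a, widely expressed forms, were not called (-0.11, 0.24, 0.18, 0.39 and 0.05, adjusted p 0.620, 0.290, 0.305, 0.0692 and 0.816). Cox4i2, a form known from lung and induced by low oxygen, was at 3.94, 1.95, 3.05, 1.13 and 2.24 TPM in pre_Liver tumors, against 5.35, 3.54 and 2.48 TPM in pre_SC tumors (-0.48 ± 0.31, adjusted p = 0.210). The low forms were thus far below their partners at both sites.
Atp5g1, Atp5g2 and Atp5g3 encode the same mature c subunit of the ATP synthase ring and differ in their targeting peptides. Atp5g1 had 355, 367, 370, 357 and 418 TPM in pre_Liver tumors, against 225, 244 and 217 TPM in pre_SC tumors, and was called (0.70 ± 0.15, adjusted p = 0.00902). Atp5g2 and Atp5g3 were not called (-0.36 and 0.38, adjusted p 0.202 and 0.0886). Ndufa4 of complex IV, at 527, 523, 602, 532 and 606 TPM in pre_Liver tumors, against 429, 331 and 399 TPM in pre_SC tumors, was called (0.53 ± 0.17, adjusted p = 0.0336).

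All 20 hepatocyte markers were higher in pre_Liver than in pre_SC tumors, with sums of 42450 to 181400 TPM in pre_Liver tumors and 80.5 to 183 TPM in pre_SC tumors, where 12 of the 20 were under 1 TPM in every library. The carcinoma epithelium markers ran the other way, with 13 of 16 called lower and sums of 1020 to 5121 TPM in pre_Liver tumors and 6836 to 8011 TPM in pre_SC tumors. The part of host liver in the members' values was not tested. In the 2 post_Liver libraries with the least Alb, which are treated tumors, Sdhb was at 105 and 112 TPM, below all 3 pre_SC values. Uqcrq was at 82.3 and 73.4 TPM and Uqcr10 at 309 and 255 TPM, above all 3 pre_SC values of each. They overlapped the treated fat pad tumors. In post_SC, Sdhb was at 119, 111 and 106 TPM, Uqcrq at 56.5, 79.9 and 50.6 TPM and Uqcr10 at 227, 295 and 207 TPM. The count moved with scaling: median-of-ratios scaling, under which the median of all genes was 0.01, called 63 members higher and 1 lower, where 23.5% and 17.1% of all genes were. Leaving 66 liver-specific genes out of the TPM called 62 higher and 2 lower, where 19.9% and 20.4% of all genes were. Relative to the median of all genes, the median member was higher by 0.85, and by 0.59 to 0.98 over 18 alternatives.

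The untreated table joins both sites after an adjustment in which replicates 1 to 3 of pre_Liver share a batch with pre_SC, while replicates 4 and 5 form another. Within that batch, 23 members were called higher (14.2% of all genes were) and 2 lower (20.0% of all genes were). Uqcrq differed by 1.76 there (adjusted p = 0.00192). Ndufa4, Ndufs3 and Sdha missed the threshold there (adjusted p 0.0531, 0.0520 and 0.0571). Single libraries mattered, and calls over all genes, 47.4% with all libraries, moved as well. Without replicate 3 of pre_Liver 14 members were called (25.7% of all genes were). Without replicates 1, 2 or 3 of pre_SC 3, 10 and 6 were called (15.7%, 22.1% and 16.7% of all genes were). Without replicate 2 of pre_Liver, 34 were called higher and 2 lower, where 16.9% and 51.7% of all genes were.

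Lists of the same pathway differed between the sites in their own ways. Cyc1, cytochrome c1 of complex III, which the symbol rule missed, had 180, 131, 205, 239 and 283 TPM in pre_Liver tumors, against 76.3, 89.5 and 90.9 TPM in pre_SC tumors (1.23 ± 0.25, adjusted p = 0.00775; named after its values were seen). Of 8 near misses of the rule tested between the sites, 5 were above 0 and 3 below, with a median of 0.26, and 2 were called higher. Of 48 assembly factors 7 were higher and 2 lower, with a median of 0.06, and of 75 mitochondrial ribosome genes 6 were higher and 2 lower, with a median of 0.00. Of 18 glycolysis genes 17 were lower and none higher, with a median of -1.25. Among 19 regulators of mitochondrial biogenesis, Ppargc1a was higher (1.48 ± 0.36, adjusted p = 0.0147) and 5 were lower, among them Nrf1 (-0.94 ± 0.25, adjusted p = 0.0196) and Yy1 (-0.88 ± 0.20, adjusted p = 0.0120). The median of the regulators was -0.35. Over all genes, 14.9% were called higher and 32.6% lower, with a median of -0.51. The shares of regulators and of assembly factors called were near or below these.
By transcript length, the median over all genes was -0.10 for under 800 bases, -0.28 for 800 to 1499 and -0.54 for 1500 and over, while the members' medians were 0.20, 0.39 and 0.34.

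The last comparison asked whether the response to paclitaxel differed between the sites, as the change in liver minus the change in fat pad. No member was called by limma, where 2.98% of all 13875 genes were; at an unadjusted p under 0.05 there were 1 higher and 20 lower, where 18.6% and 6.46% of all genes were. The median member had a difference of -0.40, against 0.38 over all genes, and 72 of 81 members were below 0. Ndufs3, a core subunit of complex I, had the lowest adjusted p, 0.0714. It had 142, 138, 136, 151 and 144 TPM in post_Liver tumors, against 174, 165, 210, 185 and 221 TPM in pre_Liver tumors, and 160, 172 and 135 TPM in post_SC tumors, against 127, 140 and 126 TPM in pre_SC tumors. Its difference was -0.66 ± 0.19.

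The next were Ndufa6, an accessory subunit of complex I (-0.63 ± 0.20, adjusted p = 0.0862), Cox6b2 (1.36 ± 0.43, adjusted p = 0.0896) and Uqcrfs1 (-0.63 ± 0.20, adjusted p = 0.0930). Cox6b2 had 0.845, 1.14 and 1.07 TPM in post_SC tumors and 0.574, 1.98 and 1.10 TPM in pre_SC tumors, and no library outside post_Liver exceeded 4.12 TPM. Without replicate 2 of pre_Liver, Cox6b2 was called higher and 8 members lower (Ndufa6, Ndufa9, Ndufb10, Ndufs3, Sdha, Sdhc, Uqcr10 and Uqcrfs1), where 14.4% and 4.29% of all genes were. Median-of-ratios scaling, under which the median of all genes was -0.03, called 6 lower, Atp5l, Atp5mpl, Cox6c, Ndufb8, Ndufv2 and Uqcrb, where 0.887% of all genes were. Of the glycolysis list, 8 of 18 had a called difference, all higher, where 2.19% of all genes were called higher.

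The treated sites are given side by side, with no test between them. Summed over complex I, post_Liver tumors had 5104 ± 572 TPM and post_SC tumors 5406 ± 417 TPM, against 5653 ± 341 TPM in pre_Liver tumors and 4556 ± 242 TPM in pre_SC tumors (SD, n = 5, 3, 5 and 3). For complex II the sums were 584 ± 70.7, 581 ± 42.3, 809 ± 133 and 537 ± 18.7 TPM in post_Liver, post_SC, pre_Liver and pre_SC tumors. The post_Liver and post_SC sums of complex II differed by less than their SDs. For complex III the sums were 1752 ± 156, 1692 ± 149, 2186 ± 186 and 1428 ± 36.8 TPM in the same order. For complex IV they were 5548 ± 705, 5980 ± 389, 5671 ± 485 and 5060 ± 197 TPM, and for complex V 6045 ± 495, 6120 ± 310, 6742 ± 372 and 5888 ± 211 TPM. The highest mean sum was that of pre_Liver tumors for complexes I, II, III and V and that of post_SC tumors for complex IV. The complex IV sum includes Cox7a2l, not counted as a subunit here, with means of 440 TPM in post_SC and 213 TPM in pre_Liver tumors. It also includes Cox6a2 and Cox8b, which replicate 2 raised in post_SC. Their means were 65.8 and 34.7 TPM in post_SC and 2.29 and 0.235 TPM in pre_Liver tumors. The order of the sums without these genes was not computed.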

How the data were processed

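RNA-seq expression tables of 16 tumor libraries were used, 5 post_Liver, 5 pre_Liver, 3 post_SC and 3 pre_SC. Per the submitters' processing notes, fastp, StringTie and the GRCm38/mm10 build were used; the order, versions and counting settings are not given in the sources used here. The fat pad table holds TPM values deposited by the authors, recognised from column sums of 1000000. The liver table holds FPKM values deposited by the authors, recognised from 2 decimals and column sums of 511645 to 547765. The untreated table holds a score deposited by the authors, TPM shifted by a constant for each gene and batch, with 2376 genes below 0; between libraries of a batch, its differences equalled those of the other tables to within 7.75e-06 TPM, so levels at both sites were put on 1 scale although the tables were made separately.

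TPM was recomputed over 17426 shared genes, after spreadsheet date names were left out (22 and 24 in the fat pad and untreated tables) and names were matched. Genes with a mean of at least 1 TPM were tested on log2(TPM + 1), which understates the change of low genes, with limma 3.58.1 in R 4.3.3 (trended empirical Bayes) and Benjamini-Hochberg adjustment, at 0.05. Fits covered post_SC against pre_SC, post_Liver against pre_Liver, pre_Liver against pre_SC, and the difference between the responses. On simulated data with 200 changed genes of log2 change 2, the 4 fits recovered 187, 149, 157 and 149. The members' median differences in these fits were 0.20, -0.18, 0.34 and -0.40, and recovery of differences that small was not simulated. Depth is unknown, so no counting interval is given.

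Alternatives were other pseudocounts, filters, scalings and tables, a hepatocyte covariate, a replicate block and leaving out each library. Named genes were up to 5 called members with the largest rise and up to 5 with the largest fall in each fit, the isoforms on a list, and the most abundant members of each complex; others were named after their values were seen. The members and lists were chosen with earlier results of these data known. Positions are from GENCODE vM21 (GRCm38), which placed 80 of 81 members. Promoters are from RefSeq; the last 20 bases of 65 of 72 lay in a GENCODE transcript of the gene.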

Additional observations from a re-analysis of the deposited data

Results flagged for a closer look

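Ndufa6, an accessory subunit of complex I, was the 1 member of 81 whose groups moved apart in opposite directions at the 2 sites without overlap. The share of all genes that did so was not computed, so this count has no background beside it. Its log2 change was -0.40 in liver tumors and 0.23 in fat pad tumors, and the difference between the responses was -0.63, with a limma adjusted p of 0.0862.

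Single libraries stood apart from the other 4 of their group in 6 of 72 groups of 5. Chance gives about 1 in 20 for independent, normally distributed values. The 72 groups share the same liver libraries, and some genes were chosen after their values were seen, so the count cannot be set against that rate. Atp5g1, which encodes subunit c of ATP synthase, was at 244 TPM in replicate 5 of post_Liver, where the others had 299 to 310 TPM, and at 418 TPM in replicate 5 of pre_Liver, where the others had 355 to 370 TPM. Atp5g3, another gene for subunit c, was at 354 TPM in replicate 4 of pre_Liver, against 450 to 482 TPM in the others. Cox7a1, the muscle form of subunit 7a, was at 6.92 TPM in replicate 3 of pre_Liver, against 1.77 to 2.94 TPM in the others. Ndufa6 was at 141 TPM in replicate 1 of post_Liver, against 170 to 181 TPM in the others. Uqcrb was at 416 TPM in replicate 3 of pre_Liver, against 345 to 359 TPM in the others.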

How the results depend on the processing

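The median of the members and the members recomputed under each alternative did not change direction. The count in liver did, where the main fit called 1 higher and 0 lower. With no filter on low values, without liver-specific genes and with the hepatocyte covariate, 0 were called higher and 1 lower. In those fits 0.746%, 0.790% and 0.670% of all genes were called lower. The median of the F1 subunits for the difference between the responses, 0.01, was below 0 in several alternatives, the lowest being -0.46 under median-of-ratios scaling. The median of all genes changed sign under some alternatives, among them median-of-ratios scaling in fat pad (0.02, against -0.03), between sites (0.01, against -0.51) and for the difference between the responses (-0.03, against 0.38). List medians and uncalled isoforms were not recomputed. Between post_SC and pre_SC tumors, 6 members were called (7.05% of all genes were). With no filter on low values 2 were called (3.75% of all genes), by empirical Bayes without a trend 1 (5.11%) and with a replicate block 0 (2.63%). Without 1 library 0 to 6 were called (0.577% to 5.85% of all genes). Between post_Liver and pre_Liver tumors, 1 was called (3.18% of all genes were). With a pseudocount of 0.1, a filter at 5 TPM, median-of-ratios scaling or quantile normalization, 0 were called (2.83%, 3.02%, 1.15% and 1.75% of all genes). Without replicates 2 and 3 of post_Liver together, an alternative chosen after seeing the data, 0 were called (1.10% of all genes). A replicate block called 4 (1 higher, 3 lower), where 15.6% of all genes were called higher and 6.80% lower. Leaving out 1 library called 0 to 11 (0.778% to 29.1% of all genes). The members' median there was -0.60 under median-of-ratios scaling, -0.39 without liver-specific genes and -0.30 with the hepatocyte covariate. Between pre_Liver and pre_SC tumors, 24 were called (47.4% of all genes were). Median-of-ratios scaling called 64 (40.6% of all genes), TPM without liver-specific genes 64 (40.3%) and the untreated table as deposited 42 (57.7%). A replicate block on shared numbers called 9 (26.1%), and leaving out 1 library called 3 to 36 (15.7% to 68.6%). The median was 0.89 under median-of-ratios scaling and 0.66 without liver-specific genes. For the difference between the responses, 0 were called (2.98% of all genes were). Median-of-ratios scaling called 6 (2.13% of all genes), TPM without liver-specific genes 3 (2.94%) and the fit without replicates 2 and 3 of post_Liver together 3 (4.07%). Leaving out 1 library called 0 to 9 (0.664% to 18.7%). Medians were -0.87 under median-of-ratios scaling and -0.62 without liver-specific genes. The cause of these moves was not tested. Without 1 library the medians ran between 0.09 and 0.25 in fat pad, -0.22 and -0.15 in liver, 0.29 and 0.40 between sites and -0.45 and -0.32 for the difference.

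Replicate numbers did not clearly pair the libraries. Same-numbered deviations correlated at 0.13, -0.141 and -0.105 in fat pad and at -0.001, -0.073 and -0.062 between the untreated sites. In liver they correlated at -0.126, 0.65, 0.058, 0.736 and 0.233, and pairs with different numbers reached 0.669 and 0.724. Whether the numbers pair the liver libraries was not settled. Over all genes, 940 were called in fat pad and 351 with the replicate block, and 436 in liver and 3071 with it. Not every library correlated best with its own number. Leaving out replicate 2 of pre_Liver called 3999 genes in liver. The unknown depth limits what can be said of low members such as Cox6b2, Cox7a1 and Cox8b.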

Other observations

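Usmg5 and Atpif1 belong to the same machinery but were not taken in by the symbol rule. Of 8 near misses of that rule tested in fat pad tumors, 3 were above 0 and 5 below, with a median of -0.03. Usmg5 was the 1 called. Usmg5, a small membrane subunit of ATP synthase, had 566, 580 and 571 TPM in post_SC tumors, against 417, 410 and 447 TPM in pre_SC tumors, a log2 change of 0.43 ± 0.09 with a limma adjusted p of 0.0335. Its values followed those of Atp5l, another membrane subunit, in having no overlap between the groups. Atpif1, the inhibitor of ATP synthase, had 103, 225, 224, 50.9 and 84.4 TPM in post_Liver tumors, against 111, 165, 79.0, 31.8 and 29.2 TPM in pre_Liver tumors. It was highest in the post_Liver libraries with the least Alb and lowest in the pre_Liver libraries with the most. These genes were named after their values were seen.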
